A study of Mus musculus with 46 samples.

Results

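Transcripts of 10 regulators of G protein signalling (RGS genes), namely Rgs2, Rgs4, Rgs6, Rgs7, Rgs8, Rgs9, Rgs10, Rgs12, Rgs16 and Rgs17, were followed across 7 types of GABAergic neuron of the mouse frontal cortex. The members were chosen by name from a gene family, with no measured value in the rule but with earlier results of these data known. All 10 were found among the 23335 genes counted. The table holds 20 genes whose symbols are Rgs with a number. Counts came from 584 cells labelled as hand-isolated single neurons, in 46 labelled libraries, which held between 7 and 16 barcoded cells.

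All animals were labelled wild type, and the types were defined by which recombinase drivers had switched on a red reporter. Martinotti cells carried Sst-Flp, CR-Cre and Ai65 (layer 2/3, females of postnatal day 35; 62 cells, 4 libraries). Interneuron-selective cells carried Vip-Flp, CR-Cre and Ai65 (females of day 32; 63 cells, 4 libraries), and CCK basket cells carried Vip-Flp, CCK-Cre and Ai65 (males of days 39 to 40; 64 cells, 4 libraries). PV basket cells carried Pv-iresCre and Ai14 (both sexes, days 58 to 83; 127 cells, 16 libraries). These PV basket numbers are as labelled and may count some cells and libraries more than once, since the libraries agreed in pairs. Chandelier cells carried Nkx2.1-CreER and Ai14, induced with tamoxifen at E17.5, from deep layers (males of day 34; 52 cells, 4 libraries) or from the upper layers (females of days 40 to 58; 80 cells, 5 libraries). The label of upper chandelier library 3 names the reporter Ai15 in place of Ai14. Long-projecting cells carried Sst-Flp, Nos1-Cre and Ai65 (males of days 28 to 29; 136 cells, 9 libraries). CR stands for the calretinin gene, Calb2, and Ai65 needs both recombinases while Ai14 needs Cre alone. A recombinase marks a cell that has ever used the driver, not one that uses it still. Type is bound to age, sex and flow cell except that Martinotti and interneuron-selective libraries share 1 flow cell, and upper chandelier and long-projecting libraries share another. The contributions of type, age and sex therefore cannot be told apart.

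RGS proteins bind the active, GTP-loaded alpha subunit of a G protein and speed up its hydrolysis of GTP, which shortens signalling by both the alpha subunit and the released beta-gamma pair. In neurons this sets how fast receptors for transmitters such as GABA, acetylcholine and opioids open potassium channels, close calcium channels or change cyclic AMP. The members fall into classes by structure. Rgs2, Rgs4, Rgs8 and Rgs16 encode small R4 proteins, Rgs6, Rgs7 and Rgs9 encode R7 proteins that need the beta subunit Gnb5 for stability, Rgs10 and Rgs12 belong to the R12 class, and Rgs17 belongs to the RZ class. Rgs2 protein is known to prefer Gq, the other R4 proteins act on Gi/o and Gq, R7 and R12 proteins act on Gi/o, and Rgs17 protein acts on Gi/o and Gz.

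Levels are given in CPM, the count scaled to the total of its library or replicate and multiplied by 1e6. They are not compared between genes, since gene lengths were not used. A replicate is the sum of all cells of 1 labelled animal, with PV basket animals 7 and 8 summed, and likewise 9 and 10, because their libraries agreed in pairs at close to sampling noise. Upper chandelier animal 14 joins a library labelled day 58 with 2 labelled day 40, so that it may be more than 1 animal, and every upper chandelier mean, SD and n = 2 rests on that label. There were thus 16 replicates, 4 of them of long-projecting cells and 2 of each other type. Replicate totals lay between about 1203740 and 12324100 counts. Each p-value is from edgeR's quasi-likelihood test, adjusted by Benjamini-Hochberg over the 15533 genes tested, and a gene was called under 0.05.

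The driver genes followed the labels in part. Calb2 averaged 103 CPM in Martinotti cells, which carry CR-Cre, and 185 CPM in long-projecting cells, which do not. Nkx2-1 was at 15.0, 16.1, 60.2 and 16.5 CPM in deep chandelier libraries, against a mean of 20.5 CPM in PV basket cells. Deep chandelier library 4 held 1918 CPM of Vip in counts from all 8 of its cells, and upper chandelier library 1 held 374 CPM in counts from all 16 of its cells. The highest cell held 1124 of the 3493 Vip counts in the first and 155 of the 360 in the second. The other 3 deep chandelier libraries had 0, 0 and 2.75 CPM of Vip, and the other 4 upper chandelier libraries had 0. Pvalb was at 0 in deep chandelier library 1. Summed markers of oligodendrocytes reached 3051 CPM in interneuron-selective library 3 and 4349 CPM in long-projecting library 2, whereas each type's median library lay between 31.8 and 122 CPM. Without interneuron-selective library 3 all 5 calls of that type against the other 6 held (adjusted p up to 0.0415, for Rgs10), and without long-projecting library 2 all 6 calls of that type held (up to 0.0374, for Rgs10). Some results that touch the Vip-holding chandelier libraries are given with and without them, and the rest only with them.

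Of the 10 RGS genes, 8 differed between types in a joint test over all 7, against 25.0% of all genes tested. In a list of other RGS genes 2 of 7 tested differed, so 8 of 10 is not a share for the whole family. The adjusted p-values were 2.89e-05 for Rgs12, 7.83e-05 for Rgs8, 0.00012 for Rgs6, 0.00104 for Rgs17, 0.00273 for Rgs10, 0.0112 for Rgs16, 0.0177 for Rgs4 and 0.0246 for Rgs7. Rgs2 (0.187) and Rgs9 (0.157) did not pass. When each type was set against the mean of the other 6, 26 of 70 gene and type pairs were called, 16 of them higher and 10 lower, where over all genes and types 5.89% were higher and 2.67% lower. These comparisons share their samples, so they are given side by side and not as independent results. In the fit the other 6 types are averaged on the log scale, whereas folds quoted here are ratios of mean CPM, so fold and fit can differ where 1 type is very low or very high.

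**Figure D1:**
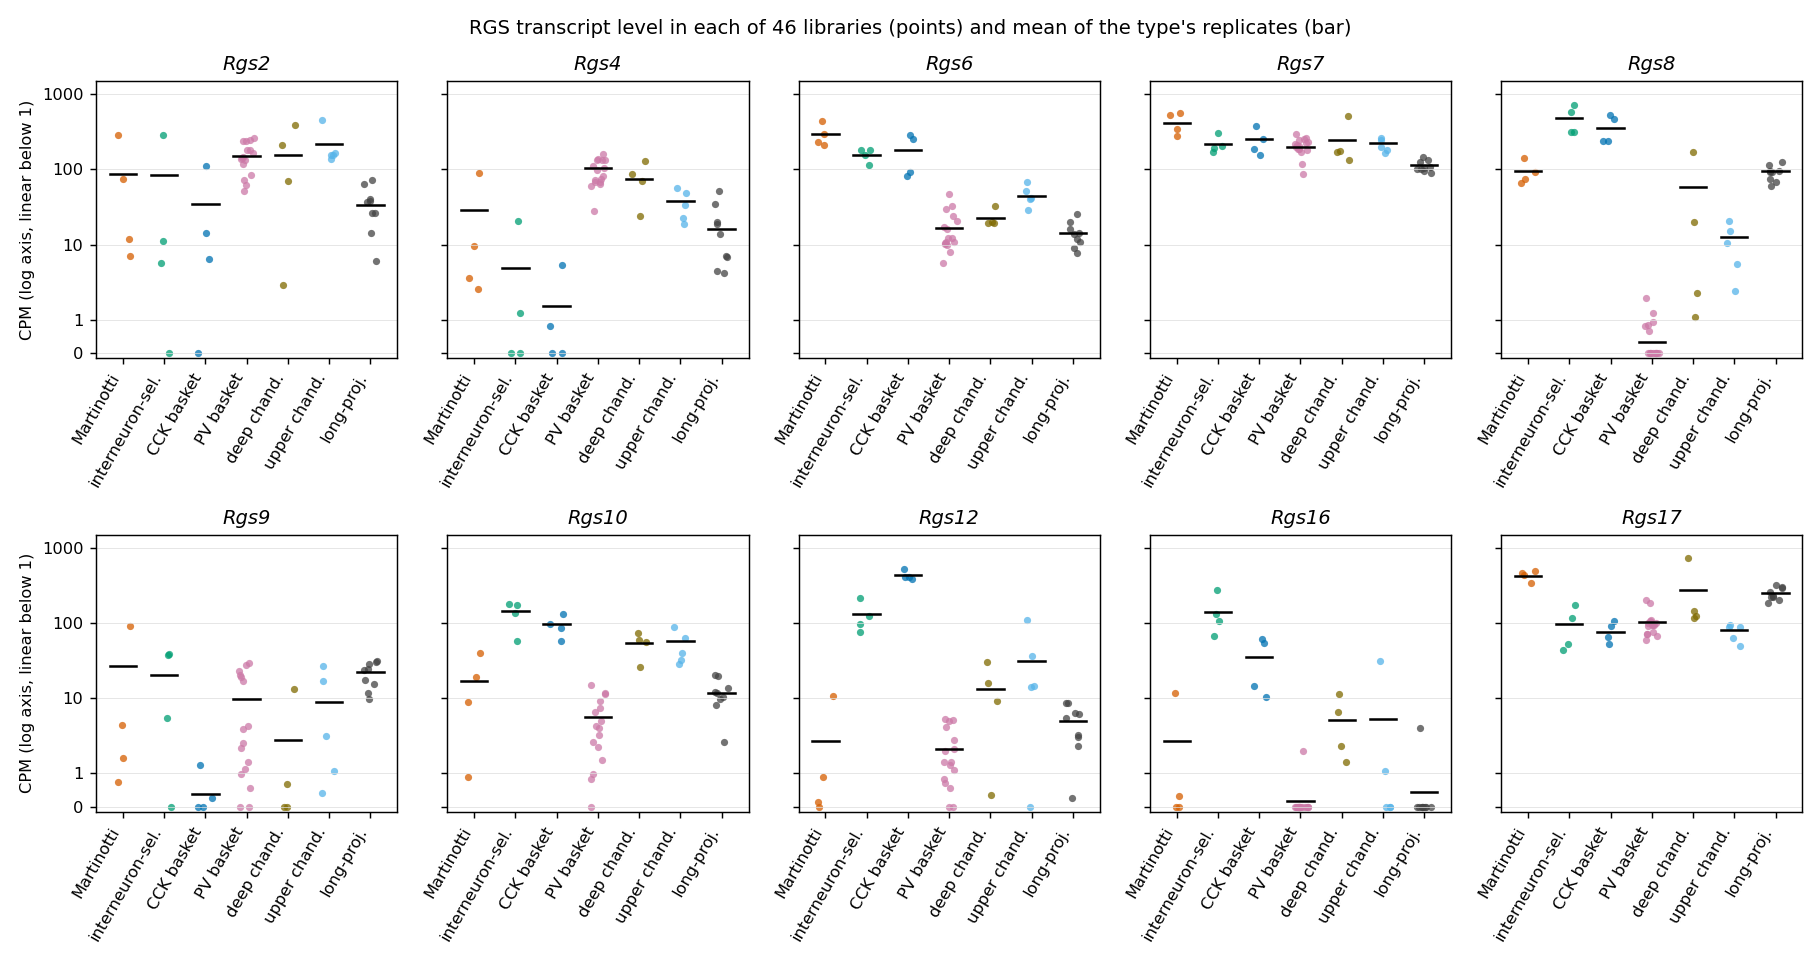
Level of each RGS gene in CPM (vertical axis, logarithmic above 1 CPM and linear below it) in each of 46 libraries (points), by cell type, with the mean of the type's replicates as a bar. Rgs8 lay between 236 and 727 CPM in all libraries of the interneuron-selective and CCK basket types and at most at 1.97 CPM in PV basket libraries.

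Rgs8 and Rgs16, neighbouring genes on chromosome 1 that both encode small R4 proteins, were each highest in the interneuron-selective type, marked by Vip and calretinin. Rgs8 reached 313, 315, 727 and 572 CPM in the 4 interneuron-selective libraries, and 236, 476, 241 and 528 CPM in the 4 CCK basket libraries. Martinotti libraries held 65.9, 75.4, 92.0 and 141 CPM, and long-projecting libraries ran from 60.7 to 126 CPM with a median of 93.6. Upper chandelier libraries had 10.4, 15.4, 5.45, 2.40 and 20.9 CPM. Libraries of the Vip-driven types thus lay above all others, without overlap.

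PV basket cells stood at the other end for Rgs8. Only 7 counts of Rgs8 were found among about 20803800, 10 of the 16 PV basket libraries, which form 8 closely agreeing pairs, had none, and the highest had 1.97 CPM. The PV basket mean was 0.339 ± 0.0207 CPM, against 184 CPM as the mean of the other 6 types (SD, n = 2; log2 fold change -8.16 ± 0.90 SE, adjusted p = 0.000255). The step between PV basket cells and the next type up, upper chandelier cells, was the only one of 60 steps between neighbouring types in the order of levels to pass the test over all 10 genes (adjusted p = 0.0235), where 0.574% of such steps passed over all genes. In the other direction, Rgs8 averaged 488 ± 246 CPM in interneuron-selective cells, 4.73 times the mean of 103 CPM in the other types (SD, n = 2; adjusted p = 0.000127), and 358 ± 43.0 CPM in CCK basket cells, 2.87 times the mean of the others (adjusted p = 0.000198). Long-projecting cells were called higher too (log2 fold change 1.32 ± 0.36 SE, adjusted p = 0.0261), but their mean of 94.3 ± 7.97 CPM (n = 4) was 0.559 times the mean of the others, since the fit averages the very low PV basket value on the log scale. That call was lost without any 1 of the 4 long-projecting animals (adjusted p 0.0504 to 0.0883), without PV basket animals 7 and 8 (0.0577) and without deep chandelier library 1 (0.0887) or 4 (0.0752).

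Deep chandelier libraries spread widely in Rgs8, with 20.0, 2.30, 172 and 1.10 CPM. The library that held Vip, number 4, was the lowest of them, and library 3 was the highest. Leaving out library 4 put the deep chandelier mean at 91.8 ± 114 CPM, against 58.8 ± 67.0 CPM with it (SD, n = 2 each).

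Rgs16 had 67.8, 132, 107 and 276 CPM in interneuron-selective libraries and 14.5, 10.3, 61.4 and 54.7 CPM in CCK basket libraries. All 4 interneuron-selective libraries lay above every library of any other type. In PV basket cells 3 counts were found in all, from 1 of 16 libraries, and in long-projecting cells 9 counts, from 1 of 9 libraries. Rgs16 averaged 141 ± 53.03 CPM in interneuron-selective cells, 17.2 times the mean of 8.21 CPM in the other types (SD, n = 2; log2 fold change 5.66 ± 1.01 SE, adjusted p = 0.00395). It was the largest fold among the 16 higher calls. CCK basket cells averaged 35.4 ± 31.9 CPM and were not called against the other 6, though they exceeded long-projecting cells at 0.438 ± 0.876 CPM (n = 4; adjusted p = 0.0337).

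The R12 genes Rgs10 and Rgs12 also peaked in the Vip-driven types. Rgs12, which encodes a large scaffold protein with a PDZ domain beside its RGS domain, had 409, 408, 385 and 522 CPM in CCK basket libraries, and 126, 218, 98.0 and 75.9 CPM in interneuron-selective libraries. CCK basket libraries lay above all others. In PV basket libraries Rgs12 ran from 0 to 5.23 CPM with a median of 1.42, and in long-projecting libraries from 0.281 to 8.76 CPM with a median of 5.55. Martinotti libraries had 10.7, 0.161, 0.893 and 0 CPM.

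Rgs12 averaged 432 ± 33.1 CPM in CCK basket cells, 13.8 times the mean of 31.2 CPM in the other types (SD, n = 2; log2 fold change 5.37 ± 0.42 SE, adjusted p = 1.22e-05). Interneuron-selective cells were higher too, at 133 ± 63.0 CPM against 81.0 CPM (n = 2; log2 fold change 3.06 ± 0.44 SE, adjusted p = 0.0011). Rgs12 was lower in PV basket cells (2.10 ± 0.0379 CPM, n = 2, adjusted p = 0.0124), in long-projecting cells (5.01 ± 1.35 CPM, n = 4, adjusted p = 0.00901) and in Martinotti cells (2.74 ± 3.30 CPM, n = 2, adjusted p = 0.0245), each against a mean of 102 to 103 CPM in the other types. All 3 of these lower calls were lost without deep chandelier library 4, which held Vip (adjusted p = 0.0688 for PV basket, 0.0568 for long-projecting and 0.101 for Martinotti cells). The PV basket call was also lost without either PV basket replicate (0.203 and 0.186), the Martinotti call without Martinotti animal 2 (0.145), Martinotti library 2 (0.12) or long-projecting library 8 (0.069), and the long-projecting call without Martinotti library 1 (0.0625). Part of the Rgs12 count is uncertain: 43.9% of it came from 55 cells with values that are not whole, as estimated counts are where a read is shared with another feature. The same holds for 26.9% of the Rgs9 count, in 48 cells, and for none of the other 8 genes.

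Upper chandelier library 1, which held Vip against its label, was also the highest upper chandelier library for Rgs12, at 110 CPM against 14.3, 0, 14.4 and 36.1 CPM in the other 4. Counts of Rgs12 came from all 16 of its cells, with 40 of 105.5 in the highest cell. Without that library the upper chandelier mean was 17.2 ± 4.03 CPM, against 31.1 ± 15.6 CPM with it (SD, n = 2 each). The part of the Vip-holding cells in the Rgs12 level was not tested.

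**Figure D2:**
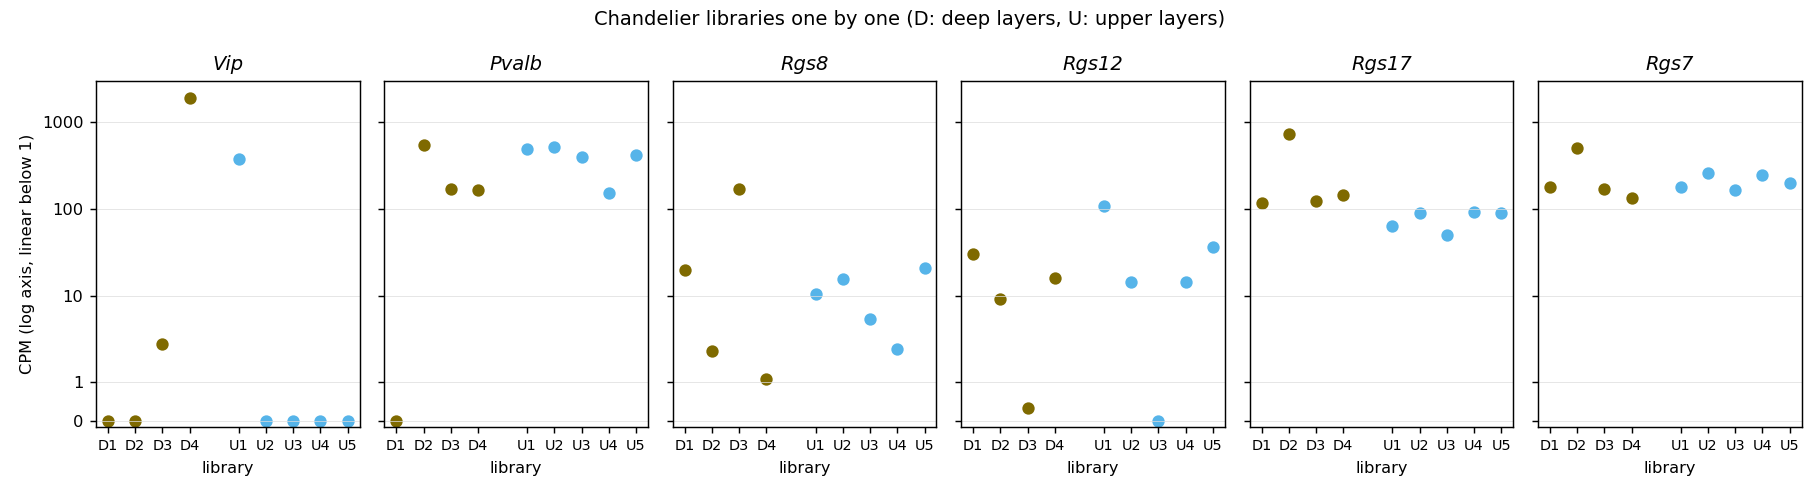
Level in CPM (vertical axis, logarithmic above 1 CPM) of Vip, Pvalb and 4 RGS genes in each deep chandelier library (D1 to D4) and each upper chandelier library (U1 to U5). Vip stands out in D4 (1918 CPM) and U1 (374 CPM), Rgs12 in U1 (110 CPM), Rgs8 in D3 (172 CPM), and Rgs17 and Rgs7 in D2 (742 and 508 CPM).

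Rgs10, a small protein made of little more than an RGS domain, had 137, 181, 175 and 58.5 CPM in interneuron-selective libraries and 96.1, 57.5, 86.3 and 134 CPM in CCK basket libraries. PV basket libraries ran from 0 to 15.0 CPM with a median of 4.15, and long-projecting libraries from 2.62 to 20.6 CPM with a median of 11.8. Those 2 types did not overlap with the Vip-driven types, and neither did Martinotti libraries, at 0.893 to 40.3 CPM. Chandelier libraries of both layers, at 26.1 to 88.1 CPM, did overlap with them. Rgs10 averaged 144 ± 25.8 CPM in interneuron-selective cells, 3.55 times the mean of the others (SD, n = 2; adjusted p = 0.0104), and 96.0 ± 20.7 CPM in CCK basket cells, 1.98 times the mean of the others (adjusted p = 0.0315). It was lower in PV basket cells (5.61 ± 3.43 CPM, n = 2, against 63.6 CPM in the other types; adjusted p = 0.0268) and in long-projecting cells (11.8 ± 4.26 CPM, n = 4, against 62.6 CPM in the other types; adjusted p = 0.0258). Each of these 4 calls was lost in some fits that left out a replicate of the type concerned (highest adjusted p 0.0742 for interneuron-selective, 0.247 for CCK basket, 0.34 for PV basket and 0.0982 for long-projecting cells).

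Microglia are known to express Rgs10. The summed level of 7 microglial markers was 1.88, 210, 96.1 and 11.2 CPM in interneuron-selective libraries 1 to 4, where Rgs10 stood at 137, 181, 175 and 58.5 CPM. In CCK basket libraries 1 to 4 the markers summed to 14.0, 1.23, 0.859 and 65.8 CPM, with Rgs10 at 96.1, 57.5, 86.3 and 134 CPM. The library with the most Rgs10 in each of these types was also the one with the most marker RNA, while interneuron-selective library 1 combined the least marker RNA with 137 CPM of Rgs10. The part of microglial RNA in the Rgs10 level was not tested. Of the 7 markers, 1 was at 0 in the interneuron-selective type and none in the CCK basket type.

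The 5 genes called higher in interneuron-selective cells were Rgs6, Rgs8, Rgs10, Rgs12 and Rgs16. RefSeq promoter windows (mouse GRCm38.p6) of the 4 of them with a match to a motif searched are shown here, 1 of the 3 windows of Rgs8 among them, and the Rgs6 window held no match. Each window runs 5′ to 3′ on the gene's strand, from 250 bases before to 50 after the start. Capitals mark every match on either strand to TGACG (part of a cyclic AMP response element), AGGTCA (a nuclear receptor core), TAATTA (a homeodomain core), CACGTG (an E-box) or GGGCGG (a GC box). The windows are Rgs8 at chr1:153652787-153653086 (+), Rgs16 at chr1:153740103-153740402 (+), Rgs10 at chr7:128418123-128418422 (-), and Rgs12 at its upstream start, chr5:34949198-34949497 (+), and its downstream start, chr5:34998828-34999127 (+).
Rgs8: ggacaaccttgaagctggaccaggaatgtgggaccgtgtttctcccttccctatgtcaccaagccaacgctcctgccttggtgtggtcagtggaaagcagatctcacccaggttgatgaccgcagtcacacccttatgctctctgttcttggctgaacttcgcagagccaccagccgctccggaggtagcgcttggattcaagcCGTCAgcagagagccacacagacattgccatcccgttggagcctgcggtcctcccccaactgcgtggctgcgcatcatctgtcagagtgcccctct
Rgs16: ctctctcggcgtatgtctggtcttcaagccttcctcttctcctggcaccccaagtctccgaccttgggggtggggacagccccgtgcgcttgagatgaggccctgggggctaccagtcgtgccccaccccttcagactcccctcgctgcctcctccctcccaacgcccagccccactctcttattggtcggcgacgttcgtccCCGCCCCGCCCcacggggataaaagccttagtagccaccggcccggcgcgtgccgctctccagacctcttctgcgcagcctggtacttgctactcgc
Rgs10: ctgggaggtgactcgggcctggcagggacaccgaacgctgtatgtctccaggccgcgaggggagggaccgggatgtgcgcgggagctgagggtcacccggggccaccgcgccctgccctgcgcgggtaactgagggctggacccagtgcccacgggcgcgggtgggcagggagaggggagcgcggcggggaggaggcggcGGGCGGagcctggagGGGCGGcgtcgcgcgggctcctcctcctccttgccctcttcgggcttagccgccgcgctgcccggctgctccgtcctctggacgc
Rgs12 upstream: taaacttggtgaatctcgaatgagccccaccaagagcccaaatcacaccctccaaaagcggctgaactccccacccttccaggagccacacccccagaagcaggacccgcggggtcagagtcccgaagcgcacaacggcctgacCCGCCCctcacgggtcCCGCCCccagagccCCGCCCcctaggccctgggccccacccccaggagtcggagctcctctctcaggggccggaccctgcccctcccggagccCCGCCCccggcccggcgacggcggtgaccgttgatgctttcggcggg
Rgs12 downstream: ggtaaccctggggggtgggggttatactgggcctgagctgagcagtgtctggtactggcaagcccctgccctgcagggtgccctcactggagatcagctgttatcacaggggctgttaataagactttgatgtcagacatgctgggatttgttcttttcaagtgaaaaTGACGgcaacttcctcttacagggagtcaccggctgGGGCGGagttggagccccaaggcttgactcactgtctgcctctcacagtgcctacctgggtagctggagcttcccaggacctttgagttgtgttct

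No single one of these motifs was shared by the windows of all 5 genes. GGGCGG was found in the windows of Rgs16, Rgs10 and Rgs12, and in the Rgs16 window a pair of its matches overlap by 1 base. The windows of Rgs2, Rgs9 and Rgs17, genes not called higher in interneuron-selective cells, held GGGCGG too. It was in 7 of the 13 member windows and is found in 35.7% of the 32851 mouse promoter windows in the table. TGACG was found in the Rgs8 window shown, on the opposite strand with its first base at position -46 from the start, and in the downstream Rgs12 window, as well as in the windows of Rgs2 and Rgs4, and is in 20.8% of all windows. AGGTCA was in 1 of the other 2 Rgs8 windows (16.3% of all windows), CACGTG only in the Rgs7 window among the 13 member windows (7.15% of all), and TAATTA in none of the 13 (5.29% of all). The Rgs10 window held 34 CG dinucleotides and the Rgs16 window 22, against 12 in the Rgs8 window shown and a median of 7 over all windows.

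For comparison, the window of Rgs4, whose levels ran opposite to those of Rgs8 (Pearson r = -0.76 over log2(CPM + 1) of the 16 replicates, a description of samples that share types), lies at chr1:169747593-169747892 (-) and holds TGACG on each strand.
Rgs4: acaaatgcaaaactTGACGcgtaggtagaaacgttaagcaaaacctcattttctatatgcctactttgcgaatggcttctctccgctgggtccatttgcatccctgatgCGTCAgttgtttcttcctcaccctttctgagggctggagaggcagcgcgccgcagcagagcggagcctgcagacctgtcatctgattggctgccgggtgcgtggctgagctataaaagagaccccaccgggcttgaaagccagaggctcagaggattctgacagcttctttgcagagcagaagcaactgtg

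Rgs4 and Rgs2, R4 genes whose transcripts are known to respond to neuronal activity, were at their highest outside the Vip-driven types. Rgs4 ran from 28.4 to 159 CPM in PV basket libraries, with a median of 90.3, and had 24.3, 85.8, 71.2 and 130 CPM in deep chandelier libraries. CCK basket libraries had 0, 0.821, 0 and 5.31 CPM, and interneuron-selective libraries had 20.7, 0, 0 and 1.24 CPM. Every PV basket and deep chandelier library lay above every library of the Vip-driven types.

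Rgs4 averaged 105 ± 6.70 CPM in PV basket cells, 3.84 times the mean of 27.2 CPM in the other types (SD, n = 2; log2 fold change 2.85 ± 0.67 SE, adjusted p = 0.0306), a call lost without either PV basket replicate (0.252 and 0.245). It averaged 73.9 ± 28.1 CPM in deep chandelier cells, 2.28 times the mean of the others (SD, n = 2; adjusted p = 0.0206), a call that held without the Vip-holding library 4 (0.0307) and was lost without library 2 (0.0514) and without animal 12, which includes library 4 (0.117). CCK basket cells were lower, with 15 counts and 1.52 ± 1.70 CPM against a mean of 44.4 CPM (SD, n = 2; adjusted p = 0.0491), but this call passed in only 6 of the 16 fits that left out a replicate. Interneuron-selective cells, with 12 counts and 4.83 ± 6.09 CPM, were not called against the other 6 and were lower than deep chandelier cells (adjusted p = 0.0335). Between PV basket and CCK basket cells, the level was 105 and 1.52 CPM (log2 fold change of CCK basket over PV basket -6.03 ± 1.36 SE, adjusted p = 0.0301).

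Rgs2 was uneven between libraries of 1 type. The 4 deep chandelier libraries had 2.86, 389, 71.2 and 212 CPM, the 4 Martinotti libraries 75.5, 7.06, 286 and 11.8 CPM, and the 4 interneuron-selective libraries 5.65, 288, 0 and 11.2 CPM. Upper chandelier libraries were closer together, at 157, 156, 136, 167 and 459 CPM, and were highest on average (220 ± 89.1 CPM, SD, n = 2). Long-projecting cells were lowest at 34.0 ± 16.8 CPM (n = 4). No type was called for Rgs2 against the other 6. The joint test passed when interneuron-selective animal 3 was left out (adjusted p = 0.0189) and when the spread was set for each type (0.00262).

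Among the R7 genes, Rgs6 divided the types into a high and a low set, though no step between neighbouring types in its order passed the test. It had 213, 233, 441 and 297 CPM in Martinotti libraries, 179, 114, 157 and 179 CPM in interneuron-selective libraries, and 92.6, 81.7, 257 and 290 CPM in CCK basket libraries. Upper chandelier libraries had 41.6, 40.2, 51.3, 67.1 and 28.5 CPM, deep chandelier libraries 20.0, 32.9, 19.3 and 19.2 CPM, and PV basket libraries ran from 5.67 to 47.5 CPM with a median of 12.3. Every Martinotti, interneuron-selective and CCK basket library lay above every library of the other 4 types, among which long-projecting libraries ran from 7.77 to 25.7 CPM.

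Rgs6 averaged 293 ± 98.0 CPM in Martinotti cells, 4.06 times the mean of 72.2 CPM in the other types (SD, n = 2; log2 fold change 2.68 ± 0.33 SE, adjusted p = 0.000303). It was higher in CCK basket cells too (181 ± 131 CPM, n = 2, adjusted p = 0.00312) and in interneuron-selective cells (155 ± 16.5 CPM, n = 2, adjusted p = 0.0215), of which the first was lost without CCK basket animal 6 (0.285) and the second without either of its animals (up to 0.169). It was lower in long-projecting cells, at 14.4 ± 4.89 CPM against 119 CPM in the other types (SD, n = 4; log2 fold change -2.24 ± 0.36 SE, adjusted p = 0.000842), and in PV basket cells, at 16.7 ± 8.30 CPM (n = 2, adjusted p = 0.0268), which was lost without either PV basket replicate (0.38 and 0.124). Martinotti and long-projecting cells both come from the Sst-Flp driver, and Rgs6 in Martinotti cells was 20.3 times that in long-projecting cells (log2 fold change 4.22 ± 0.46 SE, adjusted p = 0.000303).

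Rgs7, known for setting the kinetics of Gi/o signals in retina and brain together with Gnb5, was found in all 46 libraries. Its lowest library had 88.2 CPM and its highest 564 CPM. Martinotti cells averaged 421 ± 10.0 CPM (SD, n = 2) and were not called against the other 6, while long-projecting cells, at 113 ± 19.2 CPM against 260 CPM in the other types, were lower (SD, n = 4; log2 fold change -1.07 ± 0.25 SE, adjusted p = 0.00942). Martinotti cells exceeded long-projecting cells 3.72 times (adjusted p = 0.00848), and deep chandelier cells exceeded them 2.19 times (adjusted p = 0.0181). Without deep chandelier library 2, at 508 CPM, the deep chandelier mean was 167 ± 14.5 CPM, against 247 ± 127 CPM with it (SD, n = 2 each). The test of deep chandelier against long-projecting cells was not rerun without that library. The joint call of Rgs7 was lost in 6 of 16 fits that left out a replicate (up to 0.0666).

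Rgs9, the R7 gene known from rod and cone photoreceptors and the striatum, was low and uneven. Martinotti libraries had 0.740, 1.61, 4.46 and 91.2 CPM, so that 1 library made up nearly the whole Martinotti mean of 26.6 ± 35.9 CPM (SD, n = 2). Long-projecting libraries were the most even, from 9.85 to 31.3 CPM with a median of 24.0. CCK basket cells had 4 counts in all, at 0.392 ± 0.333 CPM (n = 2). None of the 7 types was called, and the fitted log2 difference of long-projecting cells from the others was 1.94 ± 0.77 SE (adjusted p = 0.123).

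Rgs17, the RZ gene, was highest in Martinotti cells. Their 4 libraries had 463, 432, 488 and 347 CPM, above long-projecting libraries (185 to 317 CPM, median 229) and above CCK basket libraries (52.0, 106, 65.7 and 90.7 CPM). PV basket libraries ran from 58.9 to 200 CPM. In Martinotti cells Rgs17 averaged 428 ± 25.0 CPM, 2.91 times the mean of 147 CPM in the other types (SD, n = 2; log2 fold change 1.69 ± 0.27 SE, adjusted p = 0.00313). Long-projecting cells were higher too, at 251 ± 46.8 CPM (n = 4; 1.42 times the mean of the others, adjusted p = 0.0143), so that both types with the Sst-Flp driver were called, though the long-projecting call was lost without animal 15, 16 or 17 (0.0583 to 0.0718) and without deep chandelier library 1 (0.168).

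Deep chandelier cells were also called higher for Rgs17 (275 ± 203 CPM, n = 2, adjusted p = 0.00721); 1 library decided this call. Library 2 held 742 CPM while the other 3 had 117, 124 and 144 CPM. Without library 2 the deep chandelier mean was 124 ± 10.7 CPM and the adjusted p was 0.899. The same library was the highest deep chandelier library for Rgs7 (508 CPM against 135 to 177 CPM in the others) and Rgs6 (32.9 CPM against 19.2 to 20.0 CPM).

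**Figure D3:**
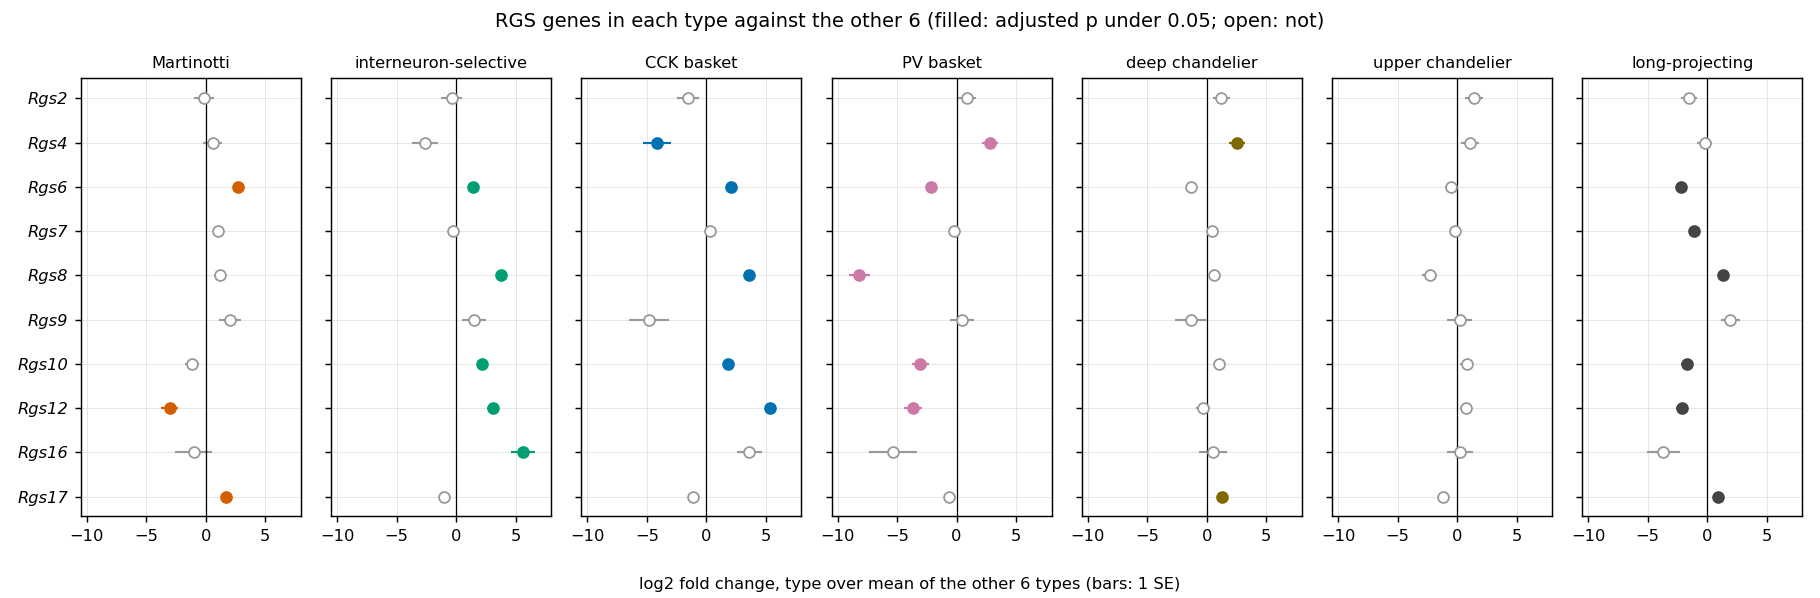
Fitted log2 fold change of each RGS gene (rows) in each type over the mean of the other 6 types (horizontal axis; bars are 1 SE), with filled points where the adjusted p was under 0.05. Upper chandelier cells have 0 filled points, and PV basket cells and the Vip-driven types lie on opposite sides for Rgs8, Rgs10 and Rgs12.

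Read by type, interneuron-selective cells were called higher for 5 of the 10 genes (Rgs6, Rgs8, Rgs10, Rgs12 and Rgs16) and lower for none, where 5.73% of all genes were called higher and 4.29% lower. CCK basket cells were called higher for 4 (Rgs6, Rgs8, Rgs10 and Rgs12), where 5.22% of all genes were, and lower for 1 (Rgs4), where 1.08% were. PV basket cells were the reverse, higher for Rgs4 alone (2.78% of all genes) and lower for Rgs6, Rgs8, Rgs10 and Rgs12 (1.11% of all genes). Martinotti cells were higher for Rgs6 and Rgs17 (3.91% of all genes) and lower for Rgs12 (1.69%). Long-projecting cells were higher for Rgs8 and Rgs17 (9.71% of all genes) and lower for Rgs6, Rgs7, Rgs10 and Rgs12 (3.40%). Deep chandelier cells were higher for Rgs4 and Rgs17 (12.3% of all genes) and lower for none (6.79%). Upper chandelier cells were called for none of the 10 by edgeR, with 0 higher and 2 lower at an unadjusted p under 0.05, in a comparison that called 1.56% of all genes higher and 0.341% lower. The number of lower calls rested in part on deep chandelier library 4, without which 6 of 70 pairs were called lower in place of 10, and 18 higher in place of 16.

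The lack of calls in upper chandelier cells does not show that they match the other types. For Rgs8 the fitted difference from the other types was -2.29 ± 0.61 SE, with an approximate 95% interval, not adjusted for the number of genes, from -3.49 to -1.08, and for Rgs17 it was -1.15 ± 0.35 SE, from -1.83 to -0.47 (log2 scale, adjusted p = 0.0801 and 0.133).

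Pairs of types that share a flow cell were compared directly. In Martinotti against interneuron-selective cells 2 of the 10 genes were called, where 3.09% of all genes were. Rgs12 was lower in Martinotti cells (2.74 ± 3.30 CPM against 133 ± 63.0 CPM, SD, n = 2 each, adjusted p = 0.00581) and Rgs17 was higher (428 ± 25.0 CPM against 96.0 ± 7.51 CPM, adjusted p = 0.0121). In a fit of these 4 replicates alone neither passed (adjusted p = 0.121 and 0.0712). In upper chandelier against long-projecting cells 3 of the 10 genes were called, where 4.08% of all genes were. Rgs8 was lower in upper chandelier cells (12.4 ± 2.12 CPM, n = 2, against 94.3 ± 7.97 CPM, n = 4, adjusted p = 0.0172), Rgs17 was lower (81.6 ± 0.271 CPM against 251 ± 46.8 CPM, adjusted p = 0.0189) and Rgs12 was higher (31.1 ± 15.6 CPM against 5.01 ± 1.35 CPM, adjusted p = 0.0335). The Rgs12 difference held in only 6 of 16 fits that left out a replicate and in 38 of 46 that left out a library. It was lost without either Vip-holding library, upper chandelier library 1 (adjusted p = 0.177) or deep chandelier library 4 (0.159). Further losses came without upper chandelier library 5 (0.114), long-projecting library 2 (0.0592) or any 1 long-projecting animal (0.0834 to 0.114). It was also lost without either upper chandelier animal and with library numbers as a replicate block (0.126). The differences of Rgs8 (0.0198) and Rgs17 (0.0223) held without upper chandelier library 1. The Rgs8 and Rgs17 differences were lost without either upper chandelier animal (0.15 and 0.228 for Rgs8, 0.172 and 0.202 for Rgs17).

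Some members varied together across the 16 replicates. Pearson's r over log2(CPM + 1) was 0.87 between Rgs10 and Rgs12, 0.79 between Rgs2 and Rgs4, 0.71 between Rgs12 and Rgs16 and between Rgs10 and Rgs16, 0.67 between Rgs6 and Rgs7, and 0.61 between Rgs8 and Rgs16. The lowest values were -0.76 between Rgs4 and Rgs8 and -0.66 between Rgs4 and Rgs12. These are descriptions, since replicates of a type share that type's level.

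By the same measure, among 7744 genes with a mean of at least 20 CPM over types, Rgs8 was most like Marcks (r = 0.967), Igf1 (0.933) and Epha3 (0.876). Rgs12 was most like Rapgef3 (r = 0.943), Htr3a (0.927) and Cxcl14 (0.915), of which Htr3a encodes a subunit of a serotonin-gated channel, and Rgs16 was most like Egfr (r = 0.925), Sobp (0.910) and Ddit4 (0.878). Rgs10 was most like Gpx4 (r = 0.909), Hipk2 (0.903) and Klf13 (0.888). For Rgs6 the nearest were Cdc23 (r = 0.908), Npas1 (0.90) and Fam65b (0.888), for Rgs7 Nmnat2 (r = 0.876), Dscaml1 (0.864) and Magi2 (0.851), and for Rgs17 Cetn4 (r = 0.869), Grik3 (0.844) and Fam129b (0.809). Lmo3 was among the 3 nearest of both Rgs2, with Lmo3 (r = 0.874), Dlst (0.868) and Hnrnph2 (0.859), and Rgs4, with Cap2 (r = 0.888), Hs3st1 (0.870) and Lmo3 (0.855). Rgs9 was most like Jazf1 (r = 0.876), Kifc3 (0.834) and Stmn4 (0.817).

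The spread of counts was set against counting noise. The spread of a member's counts between the cells of a library was at a median of 0.790 to 1.31 times counting noise over the 10 genes, with the highest libraries at 5.87 times for Rgs2, 4.03 for Rgs17 and 3.65 for Rgs7. Between libraries of 1 type it was at a median of 6.45 to 212 times noise. For a given relative difference this ratio grows with the counts summed, so its size is not set against that between cells. Summing cells that vary independently would leave the ratio unchanged, so at the median libraries of 1 type differed by more than the spread between their cells gives. All 16 cell barcodes recur in several libraries, up to 38 of the 46. Levels were therefore compared between replicates and not between cells, and shares of cells with a count are not read as shares of expressing cells.

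Genes around the RGS proteins were taken from lists of their targets and partners, and each count below is to be read against the 25.0% of all genes that differed between types. Of the R7 partners, Rgs7bp and Gpr158, which encode membrane anchors of R7 proteins, differed between types, and Gnb5 did not pass (2 of 3 tested; joint adjusted p = 0.000576, 0.000784 and 0.0751). Rgs7bp was at 645 ± 127 CPM in deep chandelier cells (n = 2) and at its lowest, 76.0 ± 13.4 CPM, in long-projecting cells (n = 4), the type in which Rgs6 and Rgs7 were also called lower. It was called higher in deep chandelier (adjusted p = 0.000794) and lower in long-projecting cells (0.000236). Gpr158 was called likewise, higher in deep chandelier (419.5 CPM, adjusted p = 0.000471) and lower in long-projecting cells (111 CPM, 0.021). Without the Vip-holding library 4 the deep chandelier means were 691 ± 61.8 CPM for Rgs7bp and 461 ± 7.35 CPM for Gpr158 (SD, n = 2 each). Gnb5 was lowest in interneuron-selective cells at 17.55 ± 12.5 CPM (adjusted p against the others 0.0353).

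Among alpha subunits of the Gi/o class 3 of 6 tested differed between types. Gnai1 was called higher in deep chandelier cells, whose replicates were far apart (345 ± 192 CPM, SD, n = 2, adjusted p = 0.000893). Without library 4 the mean was 345 ± 191 CPM, and levels without library 2 were not computed for this gene. Gnai2 was lower in PV basket cells (14.1 CPM, 0.033) and higher in long-projecting cells (70.8 CPM, 0.0384), and Gnai3 was lower in interneuron-selective cells (5.88 ± 3.62 CPM, 0.0108). Gnao1, the main Go subunit of brain, was between 134 and 292 CPM and did not pass (joint adjusted p = 0.0698). Of the Gq class 2 of 4 differed, among them Gnaq, at 1201 ± 83.0 CPM highest in long-projecting cells (adjusted p = 0.000622), and Gna11, called higher in Martinotti cells (0.0416) and CCK basket cells (0.0494). Gna14 was called higher in Martinotti (0.0361) and lower in deep chandelier cells (0.0421) without passing the joint test (0.0731), and Gna15 passed neither (0.808 in the joint test). Of Gs and G12/13 subunits 2 of 4 differed. Gnas was lower in Martinotti (276 CPM, 0.0386) and interneuron-selective cells (318 CPM, 0.0399), and Gnal ranged from 101 to 222 CPM (joint adjusted p = 0.0436), while Gna12 (0.816) and Gna13 (0.33) did not pass. Of the beta and gamma subunits 5 of 11 tested differed, among them Gng3, highest at 697 ± 60.6 CPM in long-projecting cells (3.05e-05), and Gng2, higher in CCK basket cells (600 CPM, 0.00788) and lower in PV basket cells (123 CPM, 0.0246). The beta subunits Gnb1 (372 to 573 CPM, 0.402) and Gnb2 (299 to 669 CPM, 0.197) did not pass.

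**Figure D4:**
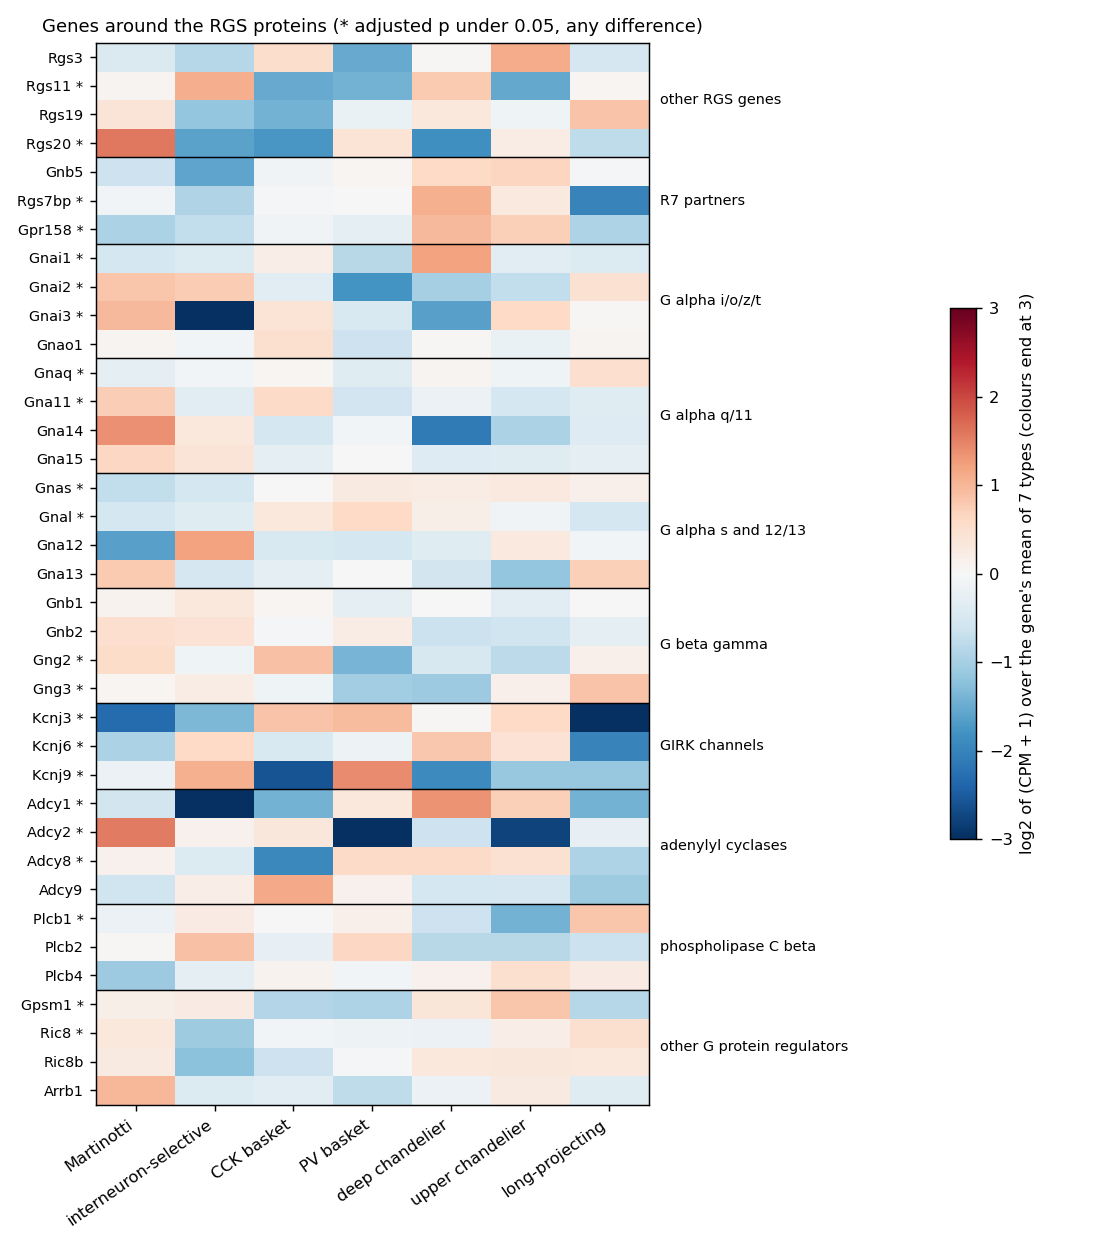
Levels of the named partner genes that were tested (rows, grouped by list) in the 7 types (columns), as log2 of CPM + 1 over the gene's own mean of the 7 types, with colours ending at 3; a star marks genes that differed between types. Kcnj3 is blue in long-projecting cells (6.66 CPM against 122 CPM in PV basket cells), and Adcy2 is blue in PV basket cells (12.4 CPM against 544 CPM in Martinotti cells).

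All 3 tested genes of GIRK channels, the potassium channels that Gi/o releases beta-gamma to open, differed between types. Kcnj3 was at 6.66 CPM in long-projecting and 11.8 CPM in Martinotti cells, both called lower (adjusted p = 0.000658 and 0.0499), and at 115 CPM in CCK basket and 122 CPM in PV basket cells, both called higher (0.0175 and 0.0262). Kcnj6 was lower in long-projecting cells too (3.19 ± 1.91 CPM, 0.00521), and higher in deep chandelier cells (28.6 CPM, 0.0287). Kcnj9 was called higher in PV basket cells (53.4 ± 2.63 CPM, 0.0499), and Kcnj5 was too low to be tested. Of adenylyl cyclases, the enzymes that make cyclic AMP, 4 of 8 differed. Adcy2 had the smallest joint adjusted p of the named partners (1.28e-05), with 544 ± 37.1 CPM in Martinotti cells (1.03e-05), 12.4 ± 1.28 CPM in PV basket cells (0.000138) and 26.2 CPM in upper chandelier cells (0.00145), the last 2 called lower. Adcy2 was called higher, on the log scale of the fit, in CCK basket (235 CPM, 0.00277), interneuron-selective (204 CPM, 0.0411) and long-projecting cells (156 CPM, 0.0224) too. Adcy1 was higher in deep chandelier cells (485 CPM, and 491 CPM without library 4; 0.00136 with it) and lower in interneuron-selective cells (22.1 CPM, 0.0106). Adcy8 was lower in CCK basket cells (28.7 CPM, 0.0261), and Adcy9 was higher there (165 CPM, 0.0367) without passing the joint test (0.0777).

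Of the phospholipase C beta genes, whose products are activated by Gq, 1 of 3 tested differed. Plcb1 stood at 1446 ± 185 CPM in long-projecting cells, called higher (0.000375), and at 305 ± 44.5 CPM in upper chandelier cells, called lower (0.0118). Plcb4 (0.702) and Plcb2 (0.196) did not pass, and Plcb3 was too low to be tested. Of other regulators 4 of 11 differed, with Gpsm1 higher in deep chandelier cells (368 CPM, 0.0486; 504.5 ± 172 CPM in upper chandelier cells, not called), Ric8 lower in interneuron-selective (38.8 CPM, 0.019) and higher in long-projecting cells (115 CPM, 0.0424), and Ric8b not passing (0.457). Arrb1, an arrestin, was called higher in Martinotti cells (499.5 CPM, 0.0302) without passing the joint test (0.0659). Of the list of other RGS genes, which includes Rgsl1, 7 were tested and 2 differed, near the share over all genes. Rgs20, of the RZ class like Rgs17, was higher in Martinotti cells (79.7 ± 74.5 CPM, n = 2, 0.016), and Rgs11, of the R7 class, was higher in interneuron-selective (33.9 ± 8.00 CPM, 0.046) and deep chandelier cells (27.4 CPM, 0.0215). Rgs3 (0.287) and Rgs19 (0.145) did not pass.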

How the data were processed

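The authors deposited estimated counts per gene and cell, with 4.07% of positive values not whole (tolerance 1e-06). Per the submitters' processing notes they used Bowtie 0.12.7 and the mm9 build, and per the labels' protocols polyadenylated RNA went through 2 rounds of linear amplification with a random tag. Nothing used here states if a count stands for a read or for a tag. Cell totals ran from 8574 to 707657 with a median of 98298, and library totals from 530927 to 4568240. Counts limit the precision of low values, and floors and SDs cover neither PCR nor amplification bias.

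Cells were summed by labelled animal and the sums rounded. The labels name 18 animals, and the design text fewer, so p-values may measure a partly technical spread. Among 190 pairs of libraries of a type, 8 PV basket pairs agreed at close to sampling noise (1.22 to 1.72 times noise, against at least 5.37 for the others). The libraries of each such pair are labelled as different animals but carry the same index sequence in different lanes of 1 flow cell. Whether each pair is 1 library entered more than once was not tested, so the numbers of PV basket libraries and cells may be too high. All libraries of PV basket animals 7 and 8 were therefore summed into 1 replicate, and those of animals 9 and 10 into another, with all counts kept. edgeR 4.0.16 in R 4.3.3 (TMM scaling, filterByExpr by type, robust quasi-likelihood fit over 16 replicates, 9 residual degrees of freedom) tested all types jointly, each type against the mean of the other 6, and pairs. The biological coefficient of variation was 61.7%. An SE is the log2 fold change over the root of F. The scripts were tested on simulated data.

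Alternatives were median-ratio scaling, DESeq2 1.42.0, limma 3.58.1 voom with a spread for each type, no filter, 18 animals, 46 libraries with and without library number as a block, own fits of 2 types, and leaving out each replicate or library. Of the pairs of types, only those that share a flow cell were tested again with a replicate or library left out. Calls of partner genes were not followed through the alternatives. All 10 members are named. Of each partner list the 4 genes of highest mean level are named, and for each member the 3 genes of most similar pattern. The members and lists were chosen with earlier results of these data known. Promoter sequences are from RefSeq (GRCm38.p6, 13 windows for 10 of 10 members), so their coordinates are not those of the authors' build.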

Additional observations from a re-analysis of the deposited data

Results flagged for a closer look

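In groups of 4 to 10 libraries, or of 4 animals, 17 values in 70 groups stood farther from the rest of their group than Dixon's test allows at the 95% level. For normally distributed values chance flags about 1 in 20 such groups. CPM values are skewed and often at 0, so the rate to be met here is not known. The same Rgs16 counts of long-projecting cells were flagged both as library 1 and as animal 15. No share over all genes is given, so the 17 values are not read as particular to RGS genes. No explanation of them was tested.

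Deep chandelier library 2 stood high for 3 genes, with 508 CPM of Rgs7 (135 to 177 in the other 3 libraries), 742 CPM of Rgs17 (117 to 144 in the others) and 32.9 CPM of Rgs6 (19.2 to 20.0 in the others). Deep chandelier library 3 had 172 CPM of Rgs8, where the others had 1.10 to 20.0 CPM. Deep chandelier library 4, which held Vip, had 13.5 CPM of Rgs9, where the others had at most 0.688 CPM.

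Rgs2 was high in interneuron-selective library 2 (288 CPM, with at most 11.2 CPM in the others), in CCK basket library 4 (110 CPM, with at most 14.2 in the others) and in upper chandelier library 5 (459 CPM, with 136 to 167 in the others). Rgs4 was high in Martinotti library 4 (90.5 CPM, with at most 9.62 in the others), in interneuron-selective library 1 (20.7 CPM, with at most 1.24 in the others) and in CCK basket library 4 (5.31 CPM, with at most 0.821 in the others).

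Martinotti library 4 also held 91.2 CPM of Rgs9, with at most 4.46 CPM in the other Martinotti libraries. Martinotti library 1 had 10.7 CPM of Rgs12, with at most 0.893 CPM in the others, and Martinotti library 3 had 11.6 CPM of Rgs16, with at most 0.321 CPM in the others. Rgs16 had 31.2 CPM in upper chandelier library 4, with at most 1.09 CPM in the others. In long-projecting cells all counts of Rgs16 came from library 1, at 4.00 CPM, so that animal 15 stood at 1.75 CPM and the other 3 animals at 0.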

How the results depend on the processing

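Of the 8 joint calls, 7 held under every alternative run, and so did 10 of the 26 calls of a type against the other 6: Rgs6 and Rgs17 in Martinotti, Rgs8, Rgs12 and Rgs16 in interneuron-selective, Rgs8 and Rgs12 in CCK basket, Rgs8 in PV basket, and Rgs6 and Rgs7 in long-projecting cells. The other 16 were lost in at least 1 alternative, most often where a replicate or library was left out, and no result changed sign. Where a replicate was left out of a type with 2, the lone sample was assumed to vary like the other groups. Rgs16, Rgs9 and Rgs4 had few counts in the types where they were lowest, so that their fitted differences there are imprecise.

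Leaving out a replicate or a library put the joint calls at 7 to 9, the higher calls at 13 to 20, the lower calls at 6 to 16, the calls between Martinotti and interneuron-selective cells at 1 to 4, and those between upper chandelier and long-projecting cells at 0 to 4. The lower calls fell to 6 without either PV basket replicate or deep chandelier library 4, and reached 16 without deep chandelier animal 12. DESeq2 gave 16 lower calls, 4 calls between Martinotti and interneuron-selective cells and 5 between upper chandelier and long-projecting cells. With 46 libraries as replicates and no block these counts were 18, 6 and 8. Fits of 2 types alone gave 0 calls between Martinotti and interneuron-selective cells and 7 between upper chandelier and long-projecting cells, and a spread set for each type gave 6 of the second kind. Calls over all genes shifted too, as given below, and the cause of these shifts was not tested.

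With library number as a replicate block there were 9 joint calls, 20 higher, 14 lower, 4 between Martinotti and interneuron-selective cells and 4 between upper chandelier and long-projecting cells. The numbers do not pair the libraries: over 91 same-numbered pairs of 2 types the median correlation of deviations was -0.00172, and 0 pairs exceeded 0.1. Rgs9 was called jointly with this replicate block (0.00537), with DESeq2 (0.0375) and with 46 libraries and no block (0.0327), and Rgs2 with the last of these (0.0311). A spread set for each type lost Rgs12 in Martinotti (0.136), Rgs6 in interneuron-selective (0.0749), Rgs4 in CCK basket (0.267), and Rgs4 (0.0718) and Rgs17 (0.369) in deep chandelier cells.

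Over all genes, 3888 joint calls compared with 7080 by DESeq2, 8677 with 46 libraries and no block, and 5393 with the replicate block. Calls between Martinotti and interneuron-selective cells ranged from 77 to 1523 genes around 480 over the alternatives. Those between upper chandelier and long-projecting cells went from 633 to at most 2299. The larger member counts of these alternatives are therefore not read as specific to RGS genes. The lower calls of deep chandelier cells ranged from 11 to 1893 around 1055, those of CCK basket cells from 25 to 633 around 167, and those of PV basket cells from 160 to 1808 around 172.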
